A study of Mus musculus with 2 samples.

Results

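Sap130 occupancy at 43 genes of cardiac ion channels and calcium handling was read from 1 peak list made by chromatin immunoprecipitation and sequencing (ChIP-seq) of embryonic mouse heart. The genes were chosen by function, and a peak was assigned to a gene where the authors' table names that gene for it. Of the 43 genes, 36 had at least 1 named peak, and these genes held 68 of the 15171 peaks with a gene name and of 16697 peaks in all. The study compared 1 library precipitated with a Sap130 antibody at E13.5 with 1 input library of unenriched chromatin, labelled E13.6, and both were labelled as wild-type B6 heart. There were no replicates, so the counts and intervals below refer to a single list and say nothing about variation from heart to heart. The heart was taken as a tissue, so signal from muscle, endothelial, valve, nerve and other cells could not be told apart, and peak positions do not report expression by which the tissue could be checked. How many embryos went into each library was not stated in the labels.

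Sap130 is a subunit of the Sin3 complex, a corepressor that carries histone deacetylases to chromatin and is found at the promoters of many active genes. Each heartbeat starts when pacemaker channels depolarise the sinus node and sodium and calcium channels open in the muscle cells. Calcium entering through L-type channels releases more calcium from the sarcoplasmic reticulum through the ryanodine receptor, and pumps and exchangers then clear it while potassium channels repolarise the membrane. Many of these genes are expressed mainly in heart or in excitable cells, whereas calmodulin, the inositol trisphosphate receptors and the plasma membrane calcium pump are used by most cell types.

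The table gives positions but no height, fold enrichment, p-value or read count for a peak, so library depth is unknown. Each peak is therefore described by its width, by its place relative to the transcription start site of the named transcript, and by its position in the authors' table, counted from 1 at the top. The criterion of that order is not stated. Negative distances lie upstream of the start site and positive distances downstream, measured at the middle of the peak. A promoter peak is one whose middle lies within 1 kb of the start site. The outermost promoter peaks of the members were centred at -990 bp (Pln) and 982 bp (Kcnj2), and the first beyond the limit at 1151 bp (Trdn) and -1159 bp (Kcnd2).

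Start regions of 6 members are printed here because they show the range found among the genes, from a start site deep inside a peak to one between peaks. Each is the RefSeq window from 250 bases before to 50 bases after a start site in GRCm38.p6, 300 bases in all, written 5′ to 3′ on the gene's strand. Every CpG dinucleotide is in capitals and the start site follows the first 250 bases. Calm3 (chr7:16923983-16924282, minus strand) and Camk2d (chr3:126596701-126597000, plus strand) lay wholly inside their peaks. The start sites of Ryr2 (chr13:12106896-12107195, minus strand) and Pln (chr10:53337436-53337735, plus strand) lay in no peak. The downstream start site of Cacna1d (chr14:30353437-30353736, minus strand) lay between peaks. Cacna1c is shown at a downstream RefSeq start site, 119108495 (chr6:119108446-119108745), which differs from the one the peak table names but lies in the same peak, and at its upstream start site (chr6:119196360-119196659), both on the minus strand and both inside a peak. The Cacna1d and Cacna1c windows were chosen after their values were seen.
Calm3: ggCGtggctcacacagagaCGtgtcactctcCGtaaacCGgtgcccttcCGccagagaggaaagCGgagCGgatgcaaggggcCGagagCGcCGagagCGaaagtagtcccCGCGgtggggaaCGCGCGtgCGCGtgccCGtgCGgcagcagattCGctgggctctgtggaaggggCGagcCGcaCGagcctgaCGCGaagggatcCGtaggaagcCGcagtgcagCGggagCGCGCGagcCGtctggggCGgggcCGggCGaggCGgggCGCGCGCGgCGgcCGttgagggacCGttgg
Camk2d: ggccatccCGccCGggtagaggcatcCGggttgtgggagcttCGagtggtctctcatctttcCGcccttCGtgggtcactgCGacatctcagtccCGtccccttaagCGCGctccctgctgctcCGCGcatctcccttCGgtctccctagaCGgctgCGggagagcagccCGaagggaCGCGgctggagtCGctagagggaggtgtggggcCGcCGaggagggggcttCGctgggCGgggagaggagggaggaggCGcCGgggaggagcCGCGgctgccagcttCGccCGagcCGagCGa
Ryr2: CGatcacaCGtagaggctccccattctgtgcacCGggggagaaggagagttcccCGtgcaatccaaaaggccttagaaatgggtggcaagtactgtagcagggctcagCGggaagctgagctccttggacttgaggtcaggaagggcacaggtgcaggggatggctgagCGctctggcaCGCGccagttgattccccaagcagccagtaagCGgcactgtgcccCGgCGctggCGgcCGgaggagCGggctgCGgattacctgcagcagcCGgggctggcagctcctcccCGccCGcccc
Pln: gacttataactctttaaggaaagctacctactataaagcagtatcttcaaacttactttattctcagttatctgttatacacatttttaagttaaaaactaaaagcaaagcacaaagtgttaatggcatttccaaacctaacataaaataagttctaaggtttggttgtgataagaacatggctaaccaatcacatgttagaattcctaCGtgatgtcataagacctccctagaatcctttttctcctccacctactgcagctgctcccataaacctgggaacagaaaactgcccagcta
Cacna1d, downstream start site: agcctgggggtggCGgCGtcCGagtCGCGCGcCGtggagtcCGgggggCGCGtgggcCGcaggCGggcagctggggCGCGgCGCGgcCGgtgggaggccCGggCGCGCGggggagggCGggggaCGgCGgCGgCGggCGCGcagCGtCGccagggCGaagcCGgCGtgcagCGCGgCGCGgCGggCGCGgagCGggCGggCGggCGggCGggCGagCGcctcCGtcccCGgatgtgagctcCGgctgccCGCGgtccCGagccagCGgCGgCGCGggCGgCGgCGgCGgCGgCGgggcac
Cacna1c, downstream start site: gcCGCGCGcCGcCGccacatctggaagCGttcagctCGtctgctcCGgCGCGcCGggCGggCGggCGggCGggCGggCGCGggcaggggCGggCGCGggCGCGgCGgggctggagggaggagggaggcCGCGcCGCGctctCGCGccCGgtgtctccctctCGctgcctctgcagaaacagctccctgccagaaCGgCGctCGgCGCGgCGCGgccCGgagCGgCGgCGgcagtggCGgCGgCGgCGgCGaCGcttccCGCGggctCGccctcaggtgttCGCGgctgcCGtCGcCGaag
Cacna1c, upstream start site: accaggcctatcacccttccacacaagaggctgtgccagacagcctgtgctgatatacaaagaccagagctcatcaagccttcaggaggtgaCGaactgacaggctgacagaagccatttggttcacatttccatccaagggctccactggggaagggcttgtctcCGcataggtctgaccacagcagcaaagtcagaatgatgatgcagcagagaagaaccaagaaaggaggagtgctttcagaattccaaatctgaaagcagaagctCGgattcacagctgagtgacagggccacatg

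The windows differ in their CpG content. Calm3 held 44 CpG dinucleotides, Camk2d 31, Ryr2 18 and Pln 1. The downstream start of Cacna1d held 63. The Cacna1c windows held 57 at the downstream start and 3 at the upstream start. How CpG content went with peaks over all members is given further on.

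Most members carried Sap130 peaks near their start. A named peak was found at 36 of 43 genes, 83.7% (95% exact Clopper-Pearson interval 69.3 to 93.2, counting error only), where 52.6% of all 20953 protein-coding genes had one. A promoter peak was found at 33 of 43, 76.7% (61.4 to 88.2), against 50.6% of all genes. A peak that contained the start site was found at 25 of 43, 58.1% (42.1 to 73.0), against 43.0%. This share rests on the transcript that the table names. With the start sites of RefSeq windows and peaks of any name, 17 of 38 member windows, 44.7%, had the site inside a peak, against 45.2% of all windows. When only promoter peaks in rows above the middle of the table were counted, 13 of 43 members remained, 30.2% (17.2 to 46.1), and the share over all genes was 34.4%. With promoter peaks no narrower than the median peak (682 bp), 20 of 43 members were counted, 46.5% (31.2 to 62.3), against 33.6%. For any named peak and for promoter peaks the background lay below the members' interval. For the other 3 criteria it lay inside the interval. These shares are descriptions of a list chosen with earlier results known, and no test was made on them. The intervals take genes as independent draws, which a chosen list is not. Whether the background lay inside or outside an interval therefore tests nothing.

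**Figure D1:**
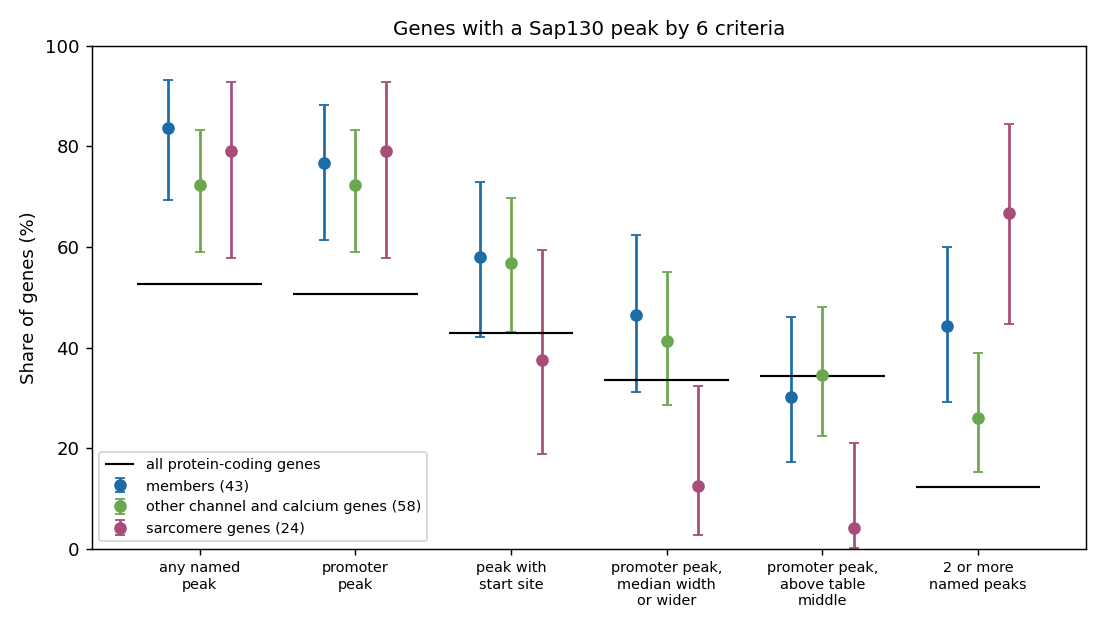
Share of genes (%) that met each of 6 criteria in the 43 members, 58 other channel and calcium genes and 24 sarcomere genes, with 95% exact Clopper-Pearson intervals, and in all 20953 protein-coding genes (black lines). The members lie at 83.7% for any named peak and at 30.2% for a promoter peak above the middle of the table, where all genes lie at 52.6% and 34.4%.

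The members' peaks were later in the table, narrower and less often on the start site than named peaks in general. Their median position was 12049, against 7811 over all named peaks, and 22.1% stood above the middle of the table, against 53.3%. Their median width was 540 bp, with quartiles of 316 and 1013 bp, against 719 bp with quartiles of 413 and 1121 bp. The start site lay inside 26 of the 68 peaks, 38.2%, against 62.5% of all named peaks. Members often had several peaks, which adds later and narrower ones. When only the earliest peak of each gene was taken, the median width was 868 bp for the members and 852 bp for all genes, while the median position was still 9392 against 5972 and the share with the start site inside 63.9% against 79.3%. The middle of the peak lay in intron 1 for 33 of 68 peaks, 48.5% against 38.1% over all named peaks, in exon 1 for 17 and upstream for 16.

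**Figure D2:**
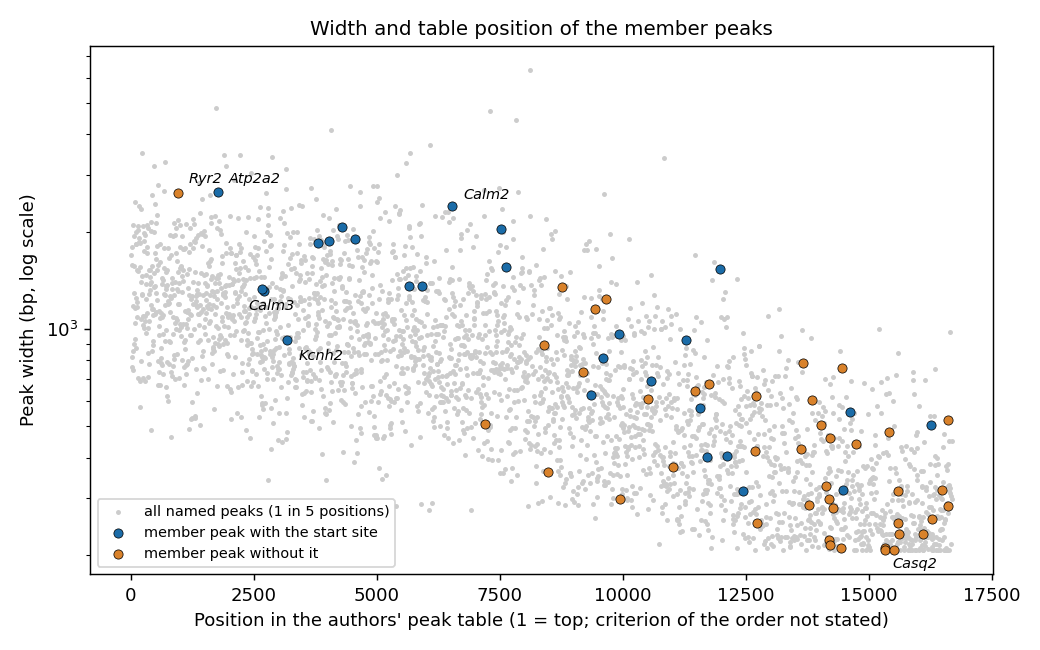
Width of each named peak (bp, log scale) against its position in the authors' table, for 1 in 5 positions (grey) and for all 68 member peaks, coloured by whether they contain the start site. Ryr2 at position 959 and Atp2a2 at 1771 come first among the members, and most member peaks without the start site lie in the later, narrower part of the table.

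All 7 calcium channel genes had a promoter peak, and 4 had a start site inside a peak. Cacna1c encodes the pore of the cardiac L-type channel that triggers contraction. It had 4 peaks at 2 start sites 88.2 kb apart. At the downstream start site that the table names (119108189) a peak of 1357 bp at position 5915 (chr6:119107234-119108591) contained the site, with a second of 607 bp centred at -870.5 bp. At the upstream start site (119196409) a peak of 1535 bp at position 11970 (chr6:119195098-119196633) contained the site, and a peak of 1242 bp followed it, centred 2017 bp downstream. Both start sites that the peak table names for Cacna1c were thus covered by wide peaks, while another RefSeq start site at 118757974 lay in no peak, 195394 bp from the nearest.

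Cacna1d, which encodes the L-type pore of the sinus node and atria, also had 4 peaks at 2 start sites, 138 kb apart. Unlike those of Cacna1c, they were narrow, between 223 and 479 bp, and none contained a start site. Peaks of 362 bp (chr14:30353613-30353975, position 8482) and 223 bp (chr14:30353248-30353471, position 14202) lay on either side of the downstream start site, with 142 bp between them. At the upstream start site, peaks of 259 and 479 bp at positions 16287 and 15408 left a gap of 1038 bp that held the site. Named peaks at start sites over 10 kb apart were found in 2 of 43 members, these L-type genes, and in 0.597% of all protein-coding genes.

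The T-type pores, which open at lower voltage, differed from each other in peak width. Cacna1h had a single peak of 1842 bp at position 3814 (chr17:25432645-25434487) that contained its start site. Cacna1g had peaks of 736 and 251 bp at positions 9184 and 15607, which began 171 bp downstream of its start site. Among the accessory subunits, Cacnb2, the beta subunit of the cardiac L-type channel, had a peak of 2043 bp over its start site at position 7521 (chr2:14603966-14606009), while another RefSeq start site at 14824092 lay in no peak. Cacna2d1, the main cardiac alpha-2-delta subunit, had peaks of 1345 and 251 bp at positions 8772 and 12730 with the start site in the 145 bp between them. Cacna2d2 had peaks of 406 and 374 bp at positions 12128 and 11026, and the former contained the start site. A start site in the gap between named peaks was found for 3 of 43 members, Cacna1d, Cacna2d1 and Pln, against 1.43% of all genes.

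Sodium channel members were thinly covered. Scn4b, an accessory sodium channel subunit, had 1 peak of 645 bp at position 11471, centred at -487.5 bp from the named start site, and this peak contained another RefSeq start site of the gene at 45138624. No peak was named for Scn10a, which encodes a sodium channel best known from sensory neurons.

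Both pacemaker channel genes had their start site inside a peak. Hcn4, the main channel of the sinus node, had the wider and earlier one, 1897 bp at position 4564 (chr9:58822310-58824207). Hcn2 had a peak of 572 bp at position 11570 (chr10:79716624-79717196) that began 10 bp upstream of the start site. A further peak of 292 bp inside Hcn4, 19.0 kb from its start, had no gene named.

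Of the potassium channel genes of late repolarisation, Kcnh2 and Kcnq1 had a start site inside a peak and Kcne1 had no named peak. Kcnh2, which encodes the pore of the rapid delayed rectifier, had 5 peaks. The earliest, 926 bp at position 3185 (chr5:24351254-24352180), contained the start site. The others were 892, 299, 215 and 280 bp wide, at positions 8407, 9953, 14226 and 14283, and were centred between -6020.5 and 2999 bp. A sixth peak inside the gene, 234 bp at position 14965 (chr5:24329348-24329582), had no gene named and was centred 126 bp downstream of an internal RefSeq start site at 24329591. Kcnq1, the pore of the slow delayed rectifier, had a peak of 811 bp at position 9593 (chr7:143106956-143107767). The nearest peak to Kcne1, which encodes the partner subunit of that channel, was 39.6 kb away and named for Rcan1.

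The 4 inward rectifier genes each had the start site of the named transcript inside a peak, all at position 9920 or later and all under 1000 bp wide. Kcnj2 and Kcnj12 encode pores of the current that holds the resting potential. Kcnj2 had peaks of 967 and 232 bp at positions 9920 and 15613, and Kcnj12 had a peak of 925 bp at 11293. Kcnj3 and Kcnj5 encode the channel through which acetylcholine slows the sinus node and atria. Kcnj3 had a peak of 690 bp at position 10581 and Kcnj5 had peaks of 555 and 426 bp at 14627 and 13619. The widest peaks of Kcnj2, Kcnj12 and Kcnj3 had their middle 59.5, 17.5 and 329 bp past the start site. The start sites of the RefSeq windows of 3 of these genes differ from the named ones and lay in no peak, 52 bp from the nearest for Kcnj5, 1170 bp for Kcnj3 and 42760 bp for Kcnj12.

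Genes of the ATP-sensitive potassium channel, which couples metabolism to excitability, had some of the latest and narrowest peaks. Kcnj11, a pore subunit, had a peak of 402 bp at position 11716. Kcnj8, the other pore subunit, had a peak of 505 bp at position 16263 (chr6:142571095-142571600), centred 8.5 bp downstream of its start site. Abcc9, the regulatory subunit, had peaks of 318 bp at position 14473 and 283 bp at position 16623, the latter being the last of all 68. Kcnj8 and Abcc9 are neighbours on chromosome 6. All 3 genes had the start site of the named transcript inside a peak, but another RefSeq start site of Kcnj8, at 142571614, lay 14 bp outside its peak.

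Of the 5 genes of the transient outward, atrial and background potassium currents, 3 had a named peak and 2 a promoter peak. Kcnd3, a pore of the transient outward current, had peaks of 625 and 211 bp at positions 9351 and 15338, the former over the start site. Kcnip2, its accessory subunit, had a peak of 315 bp at position 12438. The single peak of Kcnd2, another transient outward pore, was 676 bp wide at position 11765 and centred at -1159 bp from the named start site. It ended 58 bp short of another RefSeq start site at 21215346. No peak was named for Kcna5, the ultrarapid atrial rectifier, where the nearest lay 313 kb away, or for Kcnk3, an acid-sensitive background channel. One end of Kcnk3 (30588170) nevertheless lay inside a peak of 1002 bp at position 2800 (chr5:30588106-30589108), which the table names for the predicted gene Gm9899.

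**Figure D3:**
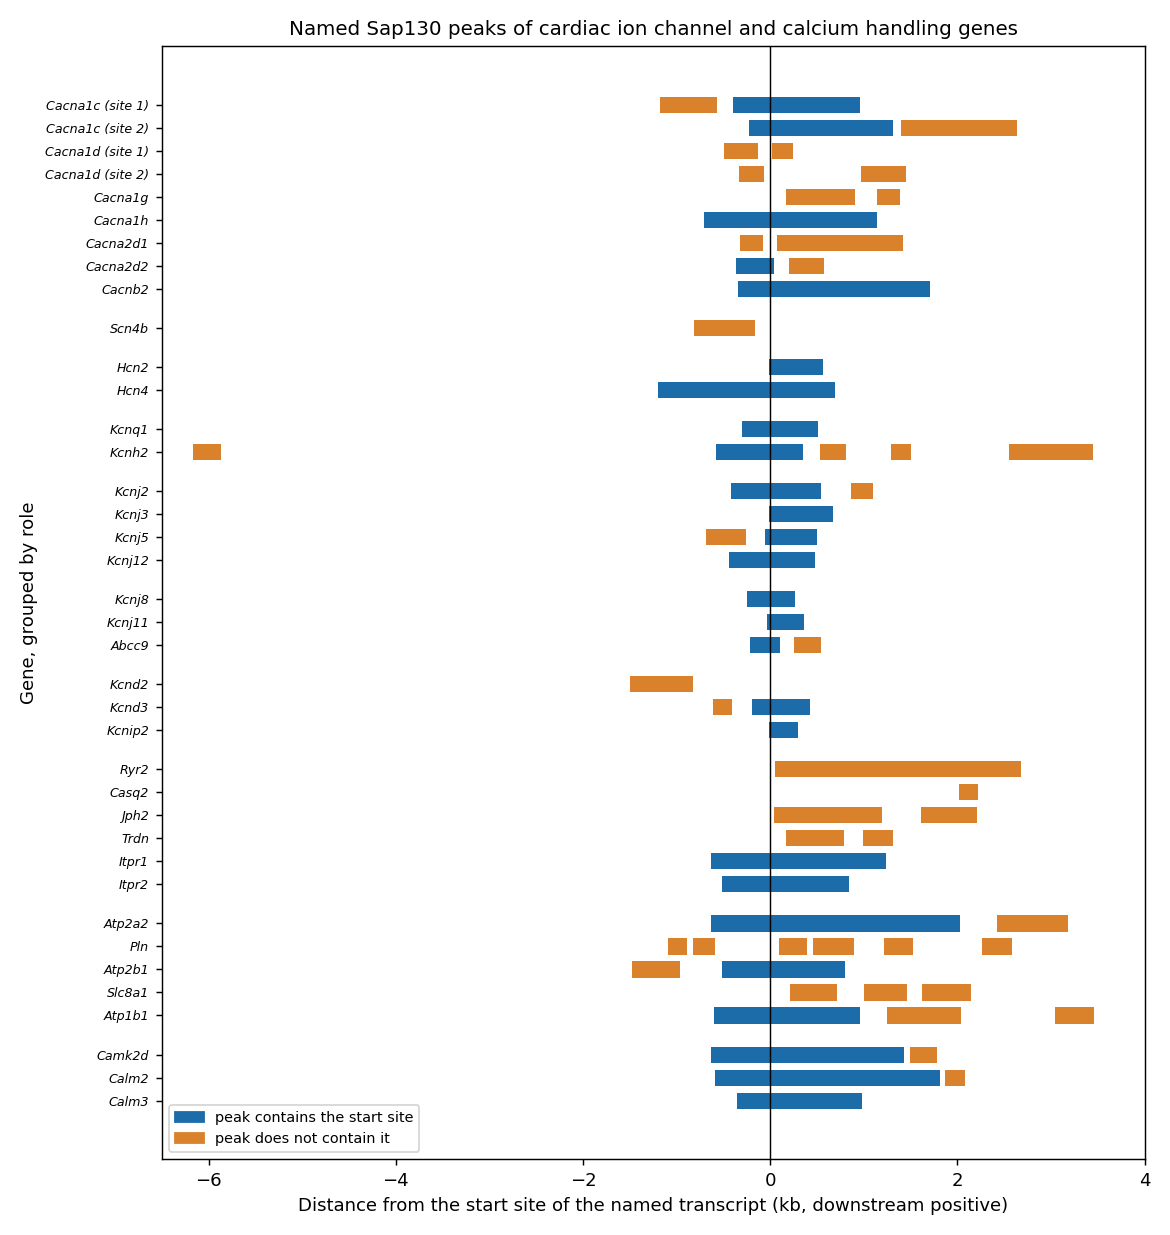
Extent of each of the 68 named peaks (kb) relative to the start site of the named transcript, with genes grouped by role and Cacna1c and Cacna1d drawn once per start site (site 1 is the downstream one). The widest peak of each calmodulin gene, of Camk2d and of Itpr1 and Itpr2 spans the start site, while every peak of Ryr2, Casq2, Jph2, Trdn, Pln and Slc8a1 lies off it.

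In the calcium release group, the genes of the muscle release unit had their peaks downstream of the start site. Ryr2, the ryanodine receptor of heart muscle, had the earliest peak of all members, at position 959, and the second widest, 2627 bp (chr13:12104269-12106896). Its width was at the 99.0th percentile of named peaks. The peak began 49 bp downstream of the start site at 12106945 and was centred 1362.5 bp downstream, in intron 1. Jph2, which ties the reticulum to the cell membrane, had peaks of 1150 and 604 bp at positions 9433 and 13850, which began 39 bp downstream of its start site. Trdn, which anchors calsequestrin to the ryanodine receptor, had peaks of 620 and 328 bp at positions 12702 and 14128, beginning 164 bp downstream. Casq2, the calcium store protein calsequestrin, had a single peak of 207 bp at position 15337, the narrowest of all members, centred 2115.5 bp downstream. No peak was named for Hrc, a calcium-binding protein of the reticulum. The nearest one lay 1.44 kb away and was named for the channel gene Trpm4.

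The inositol trisphosphate receptors, release channels of many cell types, had peaks over their start sites. Itpr1 had a peak of 1874 bp at position 4039 (chr6:108212460-108214334) and Itpr2 one of 1357 bp at position 5666 (chr6:146501384-146502741). Of the 6 genes of this group with a peak, Itpr1 and Itpr2 were those with the start site inside it.

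Among pumps and exchangers, Atp2a2 encodes the pump that returns calcium to the sarcoplasmic reticulum. It had the widest peak of all members, 2660 bp at position 1771 (chr5:122500198-122502858), which contained its start site. A second peak of 760 bp, at position 14467, was centred 2798 bp downstream, in intron 3. Pln, the inhibitor of that pump, had the most peaks, 6, and they were narrow, between 208 and 441 bp, and late, at positions 14189 to 16494. They lay between 1094 bp upstream and 2582 bp downstream of the start site, which fell in a gap of 679 bp. No peak was named for Sln, a related inhibitor found mainly in atria, and the nearest was 121 kb away.

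Slc8a1, the sodium-calcium exchanger that removes calcium at the cell membrane, had 3 peaks of 506, 459 and 524 bp at positions 14035, 14214 and 16613, all in intron 1 and the nearest beginning 206 bp downstream of the start site. Another 4 peaks inside this long gene had no gene named. Of these, 3 lay together 67.8 to 68.8 kb downstream of the gene's start, at positions 9582, 10510 and 14656, of which 2 stood earlier in the table than any named peak of the gene. Atp2b1, the plasma membrane calcium pump, had a peak of 1309 bp over its start site at position 2712 (chr10:98914638-98915947) and one of 509 bp upstream at position 7208. Atp1b1, the beta subunit of the sodium pump, had a peak of 1559 bp over its start site at position 7636 and others of 421 and 784 bp at 12699 and 13672. Atp2b4, a second plasma membrane calcium pump gene, had no named peak. A peak of 636 bp without a gene name (chr1:133800568-133801204, position 13670) nevertheless contained the upstream end of the annotated gene at 133801059, and another of 276 bp lay within 1 kb of it.

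The calmodulin genes and their kinase had all 3 start sites inside wide peaks. Calm3 had a peak of 1334 bp at position 2676 (chr7:16923057-16924391), Calm2 one of 2407 bp at 6538 (chr17:87445121-87447528) and Camk2d, the main cardiac calmodulin kinase, one of 2069 bp at 4288 (chr3:126596336-126598405). Calm2 and Camk2d each had a second, narrow peak of 210 and 285 bp directly downstream. The median width in this group was 1334 bp, against 482 bp for pumps and exchangers and 360 bp for the ATP-sensitive channel.

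Several named peaks per gene were common before neighbouring peaks were joined. At least 2 named peaks were found at 19 of 43 members, 44.2% (29.1 to 60.1), against 12.2% of all genes. At least 4 were found at 4 members, against 1.03%. Of these, Kcnh2 and Pln had 5 and 6 at 1 start site, while Cacna1c and Cacna1d had 2 at each of 2 start sites. Many peaks of a gene lay close together, and when peaks of a transcript less than 500 bp apart were joined, the 68 peaks became 44. Only Cacna1c, Cacna1d, Kcnh2, Pln and Atp1b1 then kept more than 1, with Cacna1c keeping 1 at each start site. The share of all genes with at least 2 joined peaks is not given, so 44.2% and 12.2% hold for unjoined peaks only. A named peak but none over the start site was found at 11 members, 25.6% (13.52 to 41.17), against 9.62% of all genes. These were Cacna1d, Cacna1g, Cacna2d1, Scn4b, Kcnd2, Ryr2, Casq2, Jph2, Trdn, Pln and Slc8a1. Among genes with a named peak, they are 11 of 36 members, beside 2015 of 11031 protein-coding genes. The gaps at the start site of Cacna2d1 and the downstream one of Cacna1d, 145 and 142 bp, close when peaks are joined as above. These counts use the transcript that the table names. With RefSeq start sites, Scn4b had one inside a peak, and Kcnh2, Kcnj3, Kcnj5, Kcnj8 and Kcnj12 did not. The only RefSeq window of Kcnh2 is at the internal start site 24329591, 9 bp from the nearest peak. Another annotated gene ended or began within 1 kb of the middle of 7 of the 68 peaks, 10.3%, against 25.7% of all matched peaks. These were the widest peaks of Hcn4, Itpr1, Cacnb2, Atp1b1, Calm3 and Kcnd3 and the narrower peak of Cacna2d1. Their assignment to the member alone is therefore less certain.

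CpG content went with the position of the start site inside or outside a peak. RefSeq windows were found for 32 members, 38 windows in all, and 17 of them, 44.7%, had the start site inside a peak of any name, as did 45.2% of the 20418 windows of protein-coding genes. Not covered by these windows were Cacna1g, Cacna1h, Kcnq1, Kcne1, Kcnj11, Kcnk3, Trdn, Itpr1, Atp2a2, Sln and Calm2. Member windows with the start site in a peak held a median of 31 CpG dinucleotides and those outside a median of 8, and over all genes the medians were 24 and 5. With 25 or more CpG, 13 of 16 member windows lay in a peak, against 85.9% of all such windows. With 5 to 14, 0 of 9 member windows did, against 25.6%. These are descriptions over promoters that share the reads of 1 library, and the part of base composition in how the library was amplified and sequenced was not tested.

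**Figure D4:**
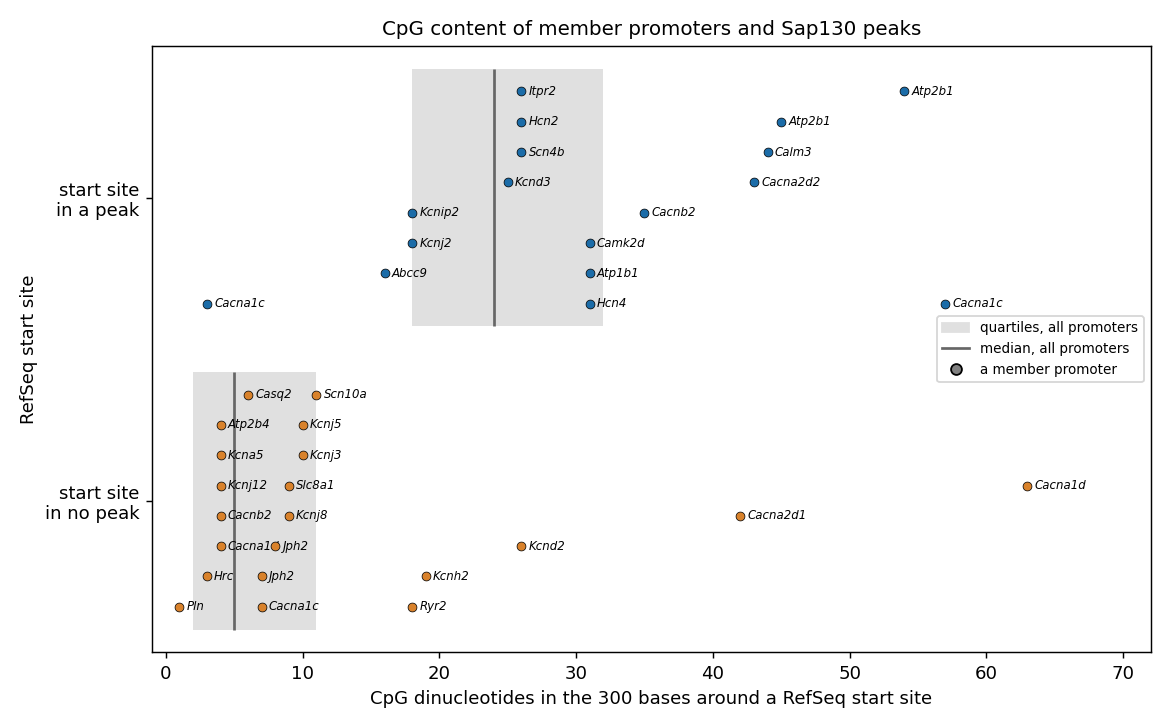
Number of CpG dinucleotides in the 300 bases around each RefSeq start site of the members, for start sites inside a peak (blue) and in no peak (orange), with the quartiles and median over all protein-coding genes in grey. Cacna1d with 63 and Cacna2d1 with 42 stand among the start sites in no peak, and the upstream start of Cacna1c with 3 among those in a peak.

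Some start sites departed from this relation. The upstream start of Cacna1c, the last sequence printed above, held 3 CpG and lay in a peak of 1535 bp, where 0.899% of 5449 windows with 0 to 4 CpG lay in one. The downstream start of Cacna1d held 63 and the start of Cacna2d1 42, and both lay between peaks, 15 and 68 bp from the nearest. Pln, with 1 CpG, also held TATAAA and GATAAG, whose first bases lay at -219 and -81 bp from the start site. GATAAG, read on both strands, was found in 2 of the 38 member windows, those of Pln and Slc8a1, 5.26% against 6.86% of all windows. TATAAA was also found in 2 windows, against 12.4% of all. GGGCGG was found in 24 windows, 63.2% against 47.7%, CACGTG in 2 against 8.05%, CCGGAAG in 1 against 11.9%, GGTGTGA in 0 against 3.70% and CAGCACC in 2 against 7.21%. None of the 7 motifs contains another, and a match describes the letters of the window only.

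Other genes of excitation and calcium handling, a list of 58 that holds no member, had a promoter peak in 42 cases, 72.4% (59.1 to 83.3), against 50.6% of all genes. No further gene of the list had a named peak elsewhere. The earliest were Ppp1ca, a phosphatase catalytic subunit, at position 589, Prkaca, the catalytic subunit of protein kinase A, at 961, and Orai1, the pore of store-operated calcium entry, at 1062. Among the 16 without a named peak were the skeletal muscle genes Ryr1, Casq1 and Atp2a1 and the accessory subunits Kcne2, Kcne3, Kcne4 and Scn3b. Their cardiac relatives Ryr2, Casq2 and Atp2a2 all had a named peak, though of these only Atp2a2 had a promoter peak. Other genes departed from this contrast. Jph1 and Cacnb1, relatives of the members Jph2 and Cacnb2, had promoter peaks at positions 7267 and 5609. The members Sln, Hrc and Kcna5 had no named peak. At least 2 named peaks were found at 15 of the 58 genes, 25.9% (15.3 to 39.0), against 12.2% of all genes.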

How the data were processed

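Sap130 ChIP-seq of embryonic mouse heart gave 1 ChIP and 1 input library. The submitters' processing notes name Bowtie 1.1.2, MACS2 2.1.0.20140616, GRCm38 and mm10. Thresholds and filters were not given in the sources used here. What the authors deposited is 1 peak table, whose columns are, per the file headers, the row number, the peak's position and a gene annotation. The span and exons of a transcript stand in unnamed columns that count from 0, so 1 was added to them. Peak coordinates were left as they are and may be off by 1 bp.

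Peaks were linked to genes of a GRCm38.p6 RefSeq table by accession (14986 peaks), symbol (135) or synonym (25), and 25 did not match. Background shares refer to protein-coding genes that have a curated transcript on an autosome or the X chromosome. The placement code was tested on planted peaks. Members and lists were chosen with earlier results of these data known. All members are named, with full values for the earliest, latest, widest and most numerous peaks and those without a promoter peak. From the other lists, the earliest genes and those without a peak are named, and some genes are not reported here. Intervals are 95% exact Clopper-Pearson intervals. No test was made, as there were no replicates. Python 3.11.15, SciPy 1.17.1, NumPy 2.4.6 and matplotlib 3.10.9 were used.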

Additional observations from a re-analysis of the deposited data

How the results depend on the processing

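The count of members with a promoter peak stayed between 25 and 36, from 33, with a window of 500 bp or of 3 kb, with the peak's nearest base in place of its middle, with peaks over the start site, merged peaks and autosomes only. It was 31 with any peak at either gene end and 24 of the 32 members with a RefSeq window when RefSeq start sites and peaks of any name were used, alternatives chosen after seeing the data. The part of the table used mattered more. Rows above the middle of the table left 13 members with a promoter peak and 14 with any named peak in place of 36, with 15 peaks in place of 68. Leaving out peaks narrower than the median left 20 and 21 members. The members' share was above that of all genes in each of these settings except the rows above the middle, at 30.2% against 34.4% and 32.6% against 35.4%. Their median width, 539.5 bp, was 620 bp over promoter peaks and 1169.5 bp after merging, which joined the 68 peaks into 44. Several of these settings remove or join peaks by construction, and the cause of the shifts was not tested. No paired analysis was possible because there was 1 ChIP library and 1 input. Without read counts the depth is unknown, so a missing peak does not show that Sap130 was absent.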

Other observations

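Sarcomere genes, which build the contractile filaments that the calcium transient activates had promoter peaks mostly late in the table. Of 24 such genes, 19 had a promoter peak, 79.2% (57.8 to 92.9), but 1 of them, Tpm1 at position 5770, had it above the middle of the table, 4.17% (0.105 to 21.1). Over all protein-coding genes these shares were 50.6% and 34.4%. A peak with the start site inside was found at 9 of 24, 37.5% (18.8 to 59.4), near the 43.0% of all genes. At least 2 named peaks were found at 16 of 24, 66.7% (44.7 to 84.4), against 12.2% of all genes. The median width of their 54 named peaks was 424 bp and the median position 13403, against 540 bp and 12049 for the channel and calcium handling genes. Mybpc3, a thick filament protein, had the widest of them, 1953 bp, centred 1603.5 bp downstream of its start site. Genes without a named peak included Myl4, Acta1, Myoz2 and Myom2.

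The L-type channel genes also enclose, or overlap, start sites of the mRNA decapping genes. A peak of 576 bp at position 7369 inside the Cacna1c span was named for Dcp1b and contained a start site at 119175253. One of 801 bp at position 7672 inside the Cacna1d span was named for Dcp1a, with a start site at 30479565. These peaks were centred 22.0 and 11.5 kb downstream of the upstream ends of Cacna1c and Cacna1d. Inside Kcnq1, 187 to 189 kb from its start, 3 peaks were named for the imprinted non-coding RNA gene Kcnq1ot1, of 1713, 580 and 240 bp at positions 7804, 15165 and 15765. The widest of them was wider than the peak at the start of Kcnq1, 811 bp. Cacna1h held a further peak of 285 bp with no gene named, 35.8 kb from its start.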
